A study of Arabidopsis thaliana with 12 samples.

Results

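The gibberellin 2-oxidase family of Arabidopsis thaliana was followed in whole seedlings of wild type and of 3 chromatin mutants. The 7 genes GA2OX1 (AT1G78440), GA2OX2 (AT1G30040), GA2OX3 (AT2G34555), GA2OX4 (AT1G47990), GA2OX6 (AT1G02400), GA2OX7 (AT1G50960) and GA2OX8 (AT4G21200) were taken by their gene identifiers from the 31788 loci of each deposited table. All 7 were found, each in a locus of its own that no other gene shares. The family here means these 7 genes, and no further 2-oxidase gene was looked up. The groups were wild type (WT) and the mutants pkl, clf and lhp1, each with 3 libraries by the titles, from seedlings of 14 days grown on Murashige and Skoog medium at 22 °C under 16 h light and 8 h dark. The labels name neither the accession nor the alleles, and leave it unsaid if a genotype's libraries are separate growths, so that the p-values may rest on technical spread alone. PKL (PICKLE) is a chromatin remodeller of the CHD3 type, CLF (CURLY LEAF) a Polycomb methyltransferase for H3K27me3, and LHP1 a protein that binds that mark; the series title concerns PICKLE and the spreading of H3K27me3.

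Gibberellins are diterpenoid hormones that promote stem elongation, leaf expansion, germination and flowering. Gibberellin 2-oxidases end their action: they are dioxygenases that use 2-oxoglutarate and add a hydroxyl group to the hormone or its precursors, which makes them inactive. GA2OX1, GA2OX2, GA2OX3, GA2OX4 and GA2OX6 act on C19 gibberellins, the group that holds the active hormones and their direct precursors, while GA2OX7 and GA2OX8 act on the earlier C20 gibberellins. Active hormone binds GID1 receptors, and the complex sends DELLA repressors to degradation through an F-box protein. Mutants in PKL are known as semi-dwarf plants whose growth resembles that of gibberellin-response mutants.

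The bases before the 3 members expressed well enough to be tested are shown, because these are the genes whose levels the results turn on. They were read from the RefSeq genome TAIR10.1 on the plus strand, ending just before the RefSeq gene start, and for GA2OX8 stopping 33 bases before it, where the authors' own locus begins.
GA2OX2, chr1:10537207-10537456: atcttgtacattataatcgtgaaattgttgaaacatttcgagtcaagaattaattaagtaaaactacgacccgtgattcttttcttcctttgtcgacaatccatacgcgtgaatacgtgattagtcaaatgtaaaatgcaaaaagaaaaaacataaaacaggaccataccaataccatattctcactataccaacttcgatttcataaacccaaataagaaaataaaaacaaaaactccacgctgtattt
GA2OX6, chr1:486550-486799: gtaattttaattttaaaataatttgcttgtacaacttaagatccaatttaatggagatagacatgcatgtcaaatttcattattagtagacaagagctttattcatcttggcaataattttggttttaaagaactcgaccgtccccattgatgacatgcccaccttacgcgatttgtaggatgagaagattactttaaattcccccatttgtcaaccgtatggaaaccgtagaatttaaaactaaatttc
GA2OX8, chr4:11302432-11302649: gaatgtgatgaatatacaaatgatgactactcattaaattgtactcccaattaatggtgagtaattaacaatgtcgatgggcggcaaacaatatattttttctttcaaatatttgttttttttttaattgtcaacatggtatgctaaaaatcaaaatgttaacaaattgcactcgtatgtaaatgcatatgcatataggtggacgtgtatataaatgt
In the full 250 bases before the RefSeq start of each of the 7 members, 3 motifs were searched on both strands. The telobox AAACCCTA, a motif bound by factors that recruit Polycomb proteins, was in none of the 7 windows and in 4.49% of 27437 windows of protein-coding genes. The core TGACAG of sites bound by KNOX homeobox proteins, described in maize, was in none of the 7 and in 5.86% of all windows. The repeat GAGAGA, of the kind bound by GAGA-motif factors, was found before GA2OX8 as TCTCTC at 22 to 17 bases before the start, inside the authors' locus and beyond the stretch printed above, and before GA2OX4, where 2 overlapping matches lie between 58 and 51 bases; 20.6% of all windows hold it. The matches describe letters only. The GC content of the 250-base windows was 31.2% for GA2OX2, 32.4% for GA2OX6 and 29.6% for GA2OX8, beside a median of 31.2% over all windows.

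The 7 genes share a layout of 3 coding exons, but differ in their introns. The first intron has 2599 bases in GA2OX8, 1355 in GA2OX6, 206 in GA2OX2 and 141 in GA2OX1. The second coding exon has 322 bases in both GA2OX7 and GA2OX8, and between 340 and 367 in the C19 members. Coding sequences of the 21 pairs were between 57.4% and 76.1% identical over aligned bases, with GA2OX2 and GA2OX3 the closest pair and GA2OX7 and GA2OX8 at 61.0%. The longest exact match between any 2 coding sequences had 23 bases, and the read length is not given in the labels. Both such runs are printed. They do not bound how far members can share reads, since only exact matches of coding sequences were searched. The run of GA2OX1 and GA2OX6 lies in the third coding exon, and that of GA2OX3 and GA2OX4 in the first coding exon. The run of GA2OX1 and GA2OX6 contains TAGGGTTT, the reverse complement of the telobox. It lies outside the upstream windows, and the motifs were not searched in the rest of the genes.
GA2OX1 and GA2OX6, chr1:29511989-29512011 on the minus strand and chr1:489170-489192 on the plus strand: agcgtgaggcatagggttttagc
GA2OX3 and GA2OX4, chr2:14557249-14557271 and chr1:17698772-17698794, both on the plus strand: ttcttcaaagtcatcaaccatgg
No other locus of the tables and no other RefSeq gene, on either strand, overlaps a member.

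Levels are the authors' FPKM (fragment counts corrected for transcript length and for the number of mapped fragments), 1 value per genotype, so no value carries a replicate spread; the depth and the number of libraries behind each value are unknown. FPKM sums over all loci ran from 911735 in lhp1 to 992382 in clf, and 17874 to 18071 loci reached 1 FPKM. A gene is called where its test status is OK and its q-value in the authors' deposited table is under 0.05; rose and fell are used for such calls. The 3 mutated genes were each low in their own mutant: PKL had 6.83 FPKM in pkl against 20.8 in wild type, LHP1 was listed at 0 in lhp1 against 12.1, and CLF had 0.264 in clf against 8.37. PKL and LHP1 were called lower; CLF was not, its q being 0.0520 in the authors' deposited table. Leaf and root transcripts were present in all genotypes, at levels that differed for some. RBCS1A, of the carbon-fixing enzyme, stood at 9334 to 14257 FPKM with no call. LHCA1, of the photosystem antenna, fell in every mutant, from 581 to 378 in pkl, 414 in clf and 385 in lhp1, as GA2OX8 did. The other leaf gene, CAB2, lies in a locus of 2 genes. That locus stood at 23.7 FPKM in wild type, 18.4 in pkl, 30.9 in clf and 60.4 in lhp1, with no call. Of the root genes, PYK10, for a glucosidase, rose in lhp1 from 1916 to 3479, EXPA7, a root hair expansin gene, rose in pkl from 22.3 to 50.1, and CASP1, of the Casparian strip, fell in clf from 47.7 to 31.1. The part of leaf or root content in the GA2OX levels was not tested. Seed storage transcripts SESA3, CRA1 and OLEO1 were at most 0.205 FPKM in any genotype.

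In wild type, 3 of the 7 genes carried most of the family's transcript. GA2OX6 was highest at 8.77 FPKM, at percentile 47.7 of single-gene nuclear loci above 0, followed by GA2OX8 at 3.57 and GA2OX2 at 3.51, at percentiles 32.6 and 32.5. GA2OX1 stood at 0.294 FPKM and GA2OX4 at 0.283, and GA2OX3 and GA2OX7 were listed at 0. By share of the summed FPKM of the family, GA2OX6 held 53.4%, GA2OX8 21.7% and GA2OX2 21.4%.

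**Figure D1:**
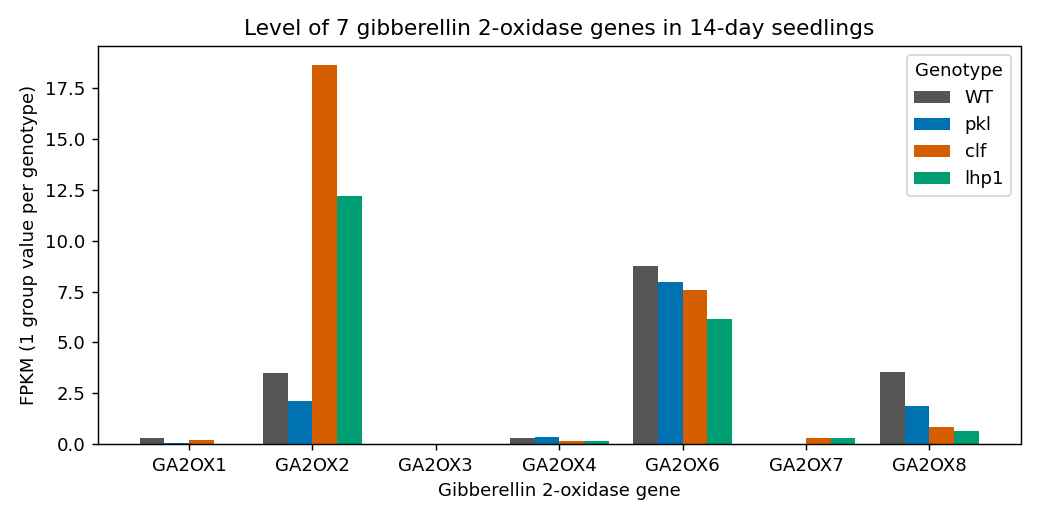
FPKM of each of the 7 gibberellin 2-oxidase genes (bars, from 0) in wild type, pkl, clf and lhp1, 1 group value per genotype with no replicate error. GA2OX2 stands at 18.6 in clf and 12.2 in lhp1 against 3.51 in wild type, GA2OX8 is below its wild-type 3.57 in every mutant, GA2OX6 stays between 6.15 and 8.77, and the other 4 genes are at most 0.340.

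GA2OX2, a C19 enzyme gene, went in opposite directions in the mutants. It stood at 3.51 FPKM in wild type, 2.12 in pkl, 18.6 in clf and 12.2 in lhp1. Thus it was lowest in pkl and highest in clf, and wild type lay between. It rose 5.30-fold in clf, a log2 fold change of 2.41, and 3.47-fold in lhp1, a log2 fold change of 1.79, both with q = 0.000661 in the authors' deposited table, the smallest q there. In pkl its log2 fold change was -0.73, a fall, where the authors' deposited table gives q = 0.0289. A standard error was read back from each p-value as the one a two-sided normal test would need. For pkl it was 0.25, with a 95% interval of the log2 fold change from -1.23 to -0.23. In clf and lhp1 the p-value is the smallest in the tables, so the intervals, 1.24 to 3.57 and 0.93 to 2.66, are the widest the p-values allow.

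GA2OX8, for a C20 enzyme, fell in all 3 mutants. Its level was 3.57 FPKM in wild type, 1.89 in pkl, 0.850 in clf and 0.635 in lhp1. The wild-type value was above every mutant value, and clf and lhp1 lay lowest. The log2 fold change was -0.91 in pkl (95% interval -1.50 to -0.33, q = 0.0161 in the authors' deposited table). It was -2.07 in clf and -2.49 in lhp1, 4.20-fold and 5.62-fold lower, with q = 0.000661 in the authors' deposited table for both. With 1 FPKM added to both values the log2 fold change was -1.30 in clf and -1.48 in lhp1. The widest intervals that those p-values allow for the ratios without it were -3.07 to -1.07 in clf and -3.69 to -1.29 in lhp1. GA2OX2 and GA2OX8, at nearly the same level in wild type, thus stood at 18.6 and 0.850 FPKM in clf and at 12.2 and 0.635 in lhp1.

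GA2OX6, the most abundant member in wild type, had the smallest changes of the tested members. Its levels were 8.77 FPKM in wild type, 7.96 in pkl, 7.59 in clf and 6.15 in lhp1. Every mutant value lay below wild type, by the most in lhp1. It fell in lhp1, with a log2 fold change of -0.51 (95% interval -0.86 to -0.16, q = 0.0283 in the authors' deposited table). The log2 fold change was -0.14 in pkl, with an interval from -0.48 to 0.20, and -0.21 in clf, with an interval from -0.55 to 0.13. Whether lhp1 differs from pkl or clf was not tested.

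**Figure D2:**
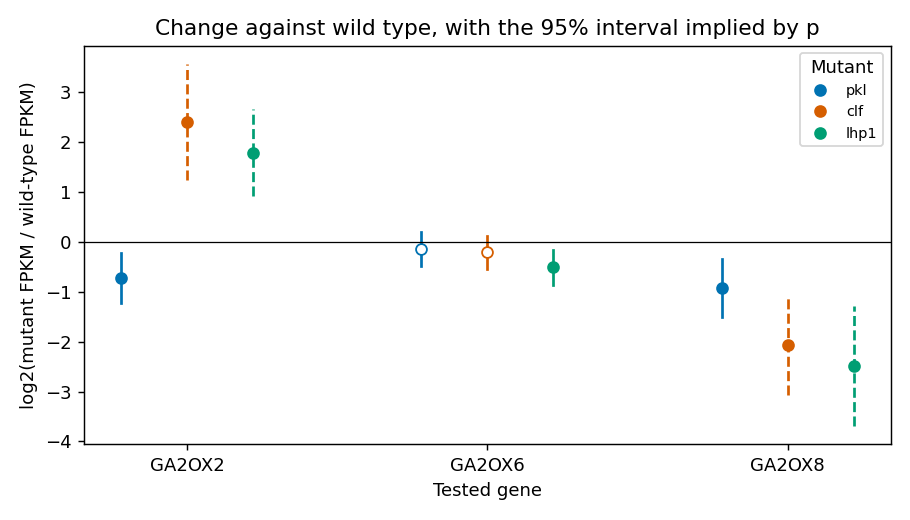
log2 ratio of mutant to wild-type FPKM for the 3 tested genes in pkl, clf and lhp1 (filled points are called at q under 0.05, open points are not). Lines are the 95% intervals implied by the p-values, dashed where the p-value is the smallest in the tables and the line is the widest it allows; GA2OX2 lies above 0 in clf and lhp1 and below 0 in pkl, and GA2OX8 below 0 in all 3.

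The other 4 genes were not tested in any table (status NOTEST) and are described by value alone. GA2OX1 stood at 0.294 FPKM in wild type, 0.0484 in pkl, 0.214 in clf and was listed at 0 in lhp1. GA2OX4, the other member reported to respond to KNOX proteins, stood at 0.283, 0.340, 0.180 and 0.136 in the same order. GA2OX7, the second C20 gene, was listed at 0 in wild type, at 0.0209 in pkl, 0.323 in clf and 0.303 in lhp1, so that it stood higher in clf and lhp1 while GA2OX8 was lower there. GA2OX3, the closest relative of GA2OX2, was listed at 0 in all 4 genotypes. For tested loci with a mean of 0.1 to 1 FPKM, the median standard error implied by the p-values was 0.63 in the pkl table on the log2 scale, beside 0.25 for 1 to 10 FPKM, so changes at the level of these 4 genes are poorly resolved.

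Among the 3 members tested, 0 were called higher and 2 lower in pkl, 1 higher and 1 lower in clf, and 1 higher and 2 lower in lhp1. Over all tested loci, 13.5% were called in pkl, 12.4% in clf and 21.7% in lhp1; by direction, 6.73% were higher and 6.74% lower in pkl, 7.11% higher and 5.28% lower in clf, and 11.1% higher and 10.6% lower in lhp1. No member was higher in pkl by Cuffdiff at an unadjusted p under 0.05 either. The median log2 fold change of the 3 tested members was -0.73 in pkl, -0.21 in clf and -0.51 in lhp1, beside 0.01, -0.01 and 0.03 over all tested loci; 3 genes are too few for more than this description. The 3 comparisons use the same wild-type values, so their calls are not independent, and the tables hold no test of one mutant against another.

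GA2OX2 held the largest share of the family's transcript in clf and lhp1, and GA2OX6 in wild type and pkl. The summed FPKM was 16.4 in wild type, 12.4 in pkl, 27.8 in clf and 19.4 in lhp1. The share of GA2OX2 was 21.4% in wild type, 17.1% in pkl, 67.0% in clf and 62.8% in lhp1, and that of GA2OX8 was 21.7%, 15.3%, 3.06% and 3.27%. The share of GA2OX6 was 53.4%, 64.3%, 27.3% and 31.7%, although its own level in clf, 7.59 FPKM against 8.77 in wild type, was not called. The C19 genes together stood at 12.9, 10.5, 26.6 and 18.5 FPKM, and the C20 genes at 3.57, 1.91, 1.17 and 0.937. These sums are descriptions of 1 value per genotype and were not tested; transcript levels say nothing here of enzyme or hormone amounts, which were not measured.

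**Figure D3:**
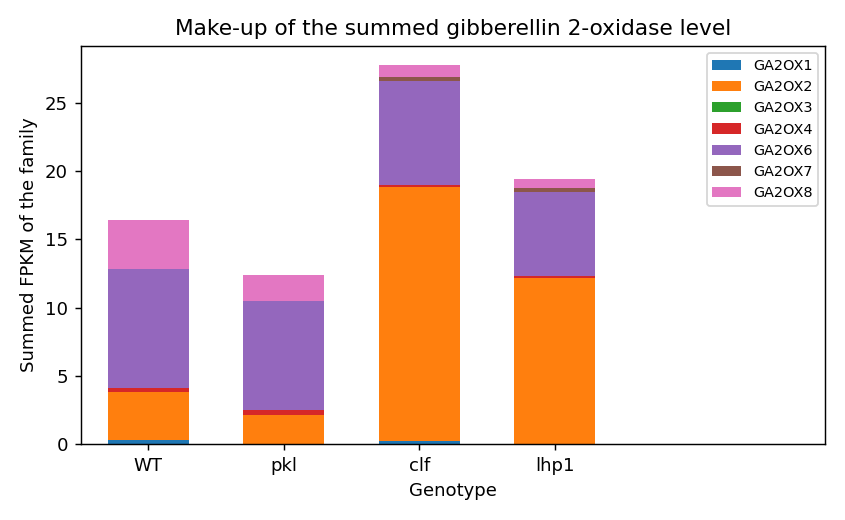
Summed FPKM of the 7 genes in each genotype (stacked bars from 0, 1 colour per gene). GA2OX2 makes up 67.0% of the sum in clf and 62.8% in lhp1, against 21.4% in wild type and 17.1% in pkl.

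The locus whose levels over the 4 genotypes lay closest to those of GA2OX2 was that of another gibberellin-inactivating enzyme, ELA1 (CYP714A1, AT5G24910), a cytochrome P450. Likeness was the Euclidean distance between values of log2(FPKM + 1), centred on each gene's mean, over 16714 other single-gene nuclear loci with at least 1 FPKM in some genotype. ELA1 stood at 1.83 FPKM in wild type, 0.969 in pkl, 11.2 in clf and 6.16 in lhp1. It fell in pkl (log2 fold change -0.92, q = 0.0235 in the authors' deposited table) and rose in clf and lhp1 (2.61 and 1.75, q = 0.000661 in the authors' deposited table for each). Its rank rests on 4 values and on clf in particular: over wild type, pkl and lhp1 alone it was 15, in a comparison added after the data were seen. ELA1 and its neighbour ELA2 have coding sequences 78.0% identical over aligned bases with a shared run of 47 bases, so reads may be divided uncertainly between them. ELA2 stood at 0.792 FPKM in wild type, 0.897 in pkl, 0.496 in clf and 0.713 in lhp1, and was not called in any. The next locus after ELA1 was AT4G21650, at 10.6, 5.45, 39.8 and 30.9 FPKM in the order wild type, pkl, clf and lhp1.

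For GA2OX8 the nearest loci were P1R3 (AT3G29370) and IAA29, an Aux/IAA repressor gene of auxin signalling. P1R3 stood at 9.38 FPKM in wild type, 5.87 in pkl, 2.86 in clf and 2.44 in lhp1, and IAA29 at 1.74, 0.793, 0.233 and 0.140. Both fell in clf and lhp1 and neither was called in pkl, where GA2OX8 fell. For GA2OX6 they were G6PD1, for a plastid glucose-6-phosphate dehydrogenase, and AT2G41710. G6PD1 stood at 69.4, 63.5, 60.7 and 50.9 FPKM and AT2G41710 at 33.5, 30.0, 29.0 and 23.9 in the same order; both fell in lhp1 and were not called in pkl or clf. A distance over 4 genotypes picks out likeness among many loci and says nothing of shared control.

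**Figure D4:**
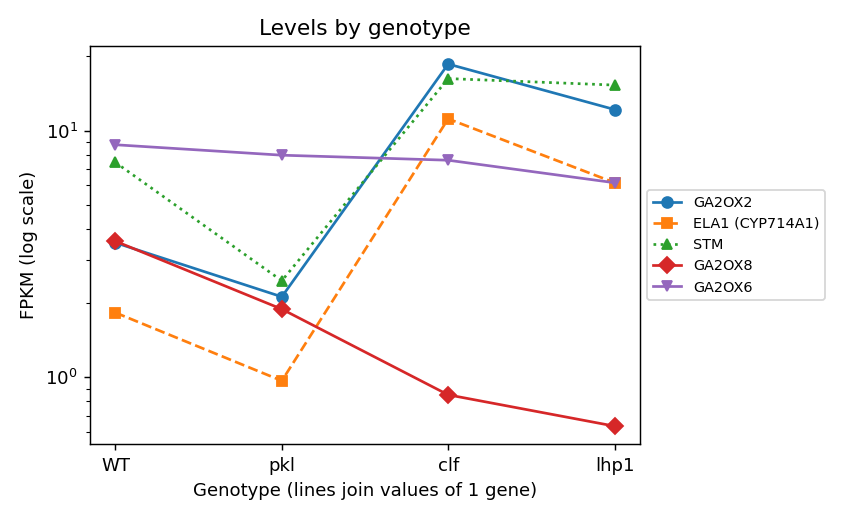
FPKM on a log scale in the 4 genotypes for GA2OX2, GA2OX8, GA2OX6, ELA1 and the KNOX gene STM, 1 group value per point, with lines joining the values of 1 gene. GA2OX2, ELA1 and STM are lowest in pkl and higher in clf and lhp1 than in wild type, while GA2OX8 goes from 3.57 in wild type to 0.635 in lhp1.

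Regulators reported to act on these genes were measured in the same tables. STM and KNAT1 are KNOX homeobox genes of the shoot meristem, and KNOX activity is reported in Arabidopsis to raise GA2OX2 and GA2OX4 transcript. STM stood at 7.44 FPKM in wild type, 2.47 in pkl, 16.3 in clf and 15.3 in lhp1, called lower in pkl and higher in clf and lhp1. KNAT1 stood at 8.94, 7.31, 16.6 and 16.3 in that order. It rose in clf and lhp1 and was not called in pkl. While GA2OX2 rose in clf and lhp1, GA2OX4 stood below wild type there and above it in pkl. GA2OX4 values were 0.283, 0.340, 0.180 and 0.136 FPKM in the same order, with no test in any mutant. AGL15, a MADS-box gene whose product is reported to activate GA2OX6, stood at 2.87, 1.69, 3.98 and 2.29 FPKM and was not called in any mutant. Their part in the levels of the GA2OX genes was not tested.

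Most floral organ genes listed rose in clf and lhp1, as GA2OX2 did, but differed from it in which of the mutants stood higher. GA2OX2 was higher in clf, at 18.6 FPKM against 12.2 in lhp1, while most of the floral genes were higher in lhp1. Of the 10 floral organ genes AG, AP1, AP3, PI, SEP1, SEP2, SEP3, SHP1, SHP2 and STK, 9 of 10 tested rose in clf and 9 of 10 in lhp1, and 1 of 7 tested, SEP3, fell in pkl. Of all tested loci, 7.11% were called higher in clf, 11.1% higher in lhp1 and 6.74% lower in pkl. The summed level of the 10 genes was 15.3 FPKM in wild type, 9.52 in pkl, 246 in clf and 423 in lhp1, with none listed at 0. SEP3 made up much of the sum, at 166 FPKM in clf and 232 in lhp1. AG, at 31.1 in clf and 11.0 in lhp1, SHP2 and STK were higher in clf. The others were higher in lhp1, among them AP3 at 7.62 in clf and 37.1 in lhp1. Of the anther and pollen genes with a locus of their own, MS1 was listed at 0 in every genotype and AMS and LAT52 were at most 0.119 FPKM. The remaining gene of that list, TDF1, lies in a locus of 3 genes, which stood between 17.2 and 20.8 FPKM with no call. In whole seedlings, more cells of a type cannot be told apart from more RNA per cell, and the part of floral tissue in the GA2OX levels was not tested.

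Calls among genes that make gibberellin differed by step and mutant. Of all tested loci, 13.5% were called in pkl, 12.4% in clf and 21.7% in lhp1. Of 4 tested genes of the early steps, none was called in pkl or lhp1, and in clf KAO2, an ent-kaurenoic acid oxidase gene in a locus shared with AT2G32430, rose by 0.49 on the log2 scale from 16.4 FPKM. Of 2 tested GA20OX genes, for the oxidases that lead from C20 to C19 gibberellins, GA20OX2 rose in clf from 2.18 to 3.95 FPKM; it stood at 3.19 in pkl and 3.03 in lhp1 and was not called there. Among 3 tested GA3OX genes, whose enzymes make the active hormones, GA3OX1 fell in pkl from 9.97 to 6.35 FPKM. GA3OX2 rose in pkl from 1.24 to 2.62, and no GA3OX gene was called in clf or lhp1. GA3OX4, and KAO1 of the early steps, lie in loci of 2 genes and were not called in any mutant. At an unadjusted p under 0.05 in Cuffdiff, 1 early gene was higher in lhp1, 1 GA20OX gene higher in pkl and 1 GA3OX gene lower in lhp1. GAMT2, for a gibberellin methyltransferase, stood at 0.618 FPKM in wild type, 0.985 in pkl, 1.22 in clf and 1.21 in lhp1 and was not called. By Cuffdiff at an unadjusted p under 0.05, GAMT2 was higher in clf and lhp1.

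On the side of perception, DELLA repressor genes had the larger changes. RGL1 stood at 6.64 FPKM in wild type, 6.91 in pkl, 21.2 in clf and 24.8 in lhp1, and rose in the last 2. RGL2 rose in every mutant, from 1.79 to 3.22 in pkl, 4.22 in clf and 7.57 in lhp1. RGL3 rose in pkl from 2.69 to 4.05 and stood at 2.62 in clf and 3.73 in lhp1 without a call. GAI fell in lhp1 from 46.7 to 28.8 FPKM and stood at 45.4 in pkl and 38.5 in clf without a call, while RGA was between 46.6 and 51.9 in all 4 genotypes and not called. The receptor gene GID1A rose in clf and lhp1, from 31.3 to 46.5 and 48.7 FPKM, and GID1C fell in pkl and lhp1, from 20.4 to 14.9 and 13.9. Of 10 tested receptor, DELLA and F-box genes, 2 rose and 1 fell in pkl, 3 rose and 0 fell in clf, and 3 rose and 2 fell in lhp1. Over all 22 tested pathway genes other than the 2-oxidases, 3 rose and 3 fell in pkl, 6 rose and 0 fell in clf, and 4 rose and 2 fell in lhp1. The shares called over all tested loci were 13.5% in pkl, 12.4% in clf and 21.7% in lhp1. In clf 1 of the 22 was lower by Cuffdiff at an unadjusted p under 0.05.

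**Figure D5:**
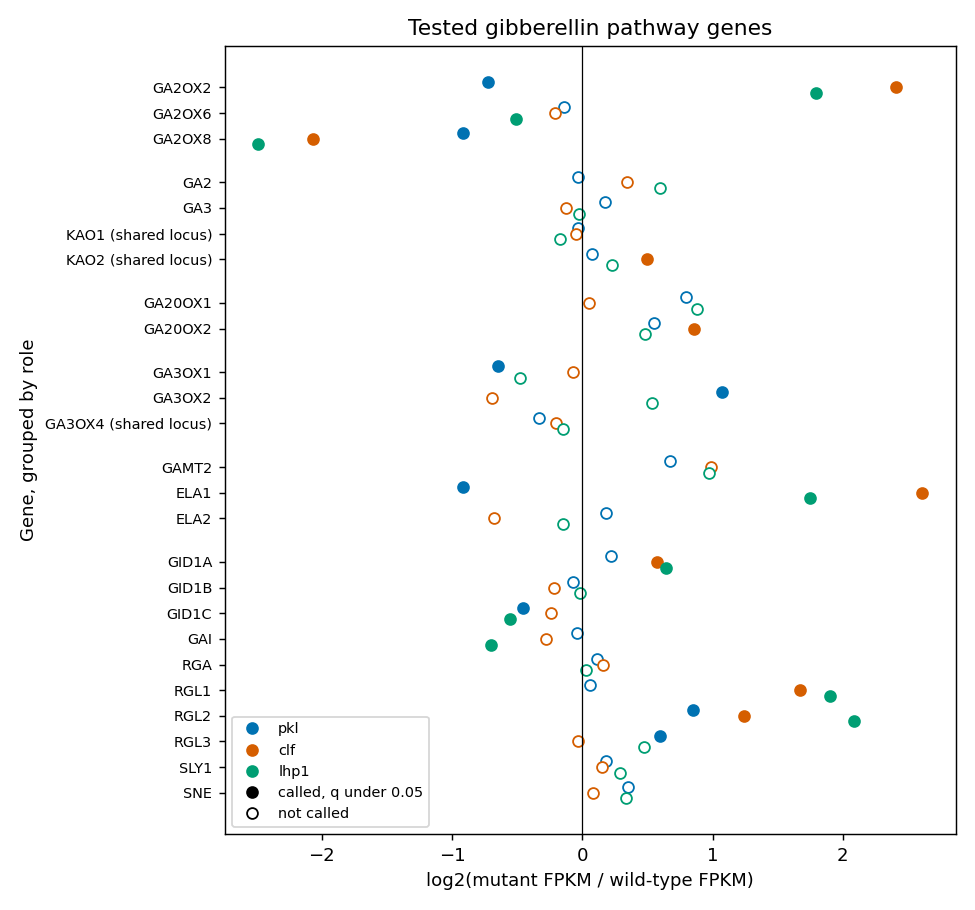
log2 ratio of mutant to wild-type FPKM for tested gibberellin pathway genes, grouped from top to bottom as 2-oxidases, early synthesis, GA20OX, GA3OX, other inactivation, and receptors with DELLA and F-box genes (filled points are called, open points are not). GA2OX8 has the lowest values, -2.07 in clf and -2.49 in lhp1, and ELA1 and GA2OX2 the highest in clf, 2.61 and 2.41.

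None of the tested loci next to GA2OX2 or GA2OX6 was called in any mutant, and beside GA2OX8 1 was, in lhp1. In the authors' tables, on TAIR10, GA2OX2 lies on chromosome 1 from 10537648 to 10539831, GA2OX6 on chromosome 1 from 486801 to 489577 and GA2OX8 on chromosome 4 from 11302650 to 11306762. Of the 14 nearest loci, 1 on each side of each member, 10 were tested in each table; 0 were called in pkl, 2 rose in clf and 2 fell in lhp1. Over all tested loci 13.5%, 12.4% and 21.7% were called. Beside GA2OX2, AT1G30030 was listed at 0 in all 4 genotypes and not tested. AT1G30050 stood at 0.418 FPKM in wild type, 0.736 in pkl, 0.230 in clf and 0.268 in lhp1, with no call. Beside GA2OX6, AT1G02391 was likewise listed at 0 in all 4 and not tested. AT1G02405 stood at 0.574 FPKM in wild type, 1.01 in pkl, 0.633 in clf and 0.678 in lhp1, with no call. Changes at such low levels are poorly resolved. The gene RP1, for a regulatory protein of pyruvate orthophosphate dikinase, starts 182 bases past the end of GA2OX8. It stood at 125 FPKM in wild type, 128 in pkl, 105 in clf and 98.4 in lhp1 and fell in lhp1, with a log2 fold change of -0.35 beside -2.49 for GA2OX8. AT4G21192, on the other side, stood between 21.5 and 27.0 FPKM with no call. The remaining calls were RIP4 beside GA2OX1, which rose in clf from 3.57 to 5.23 FPKM, MYB112 beside GA2OX4, which rose in clf from 2.23 to 5.55, and the shared locus of AT1G78450 and AT1G78460 beside GA2OX1, which fell in lhp1 from 309 to 161.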

How the data were processed

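RNA from whole seedlings was sequenced, with 1 µg of total RNA per library per the labels' protocols. Cuffdiff 2.1.1, Cufflinks 2.1.1 and TopHat were used on TAIR10, per the submitters' processing notes; strand handling is not given in the sources. Per the file headers, each deposited table holds 1 FPKM per genotype at every locus, and the p-value and q-value of a mutant against wild type. How many libraries entered each value, the number of tests over which q was adjusted and the depth are unknown. A Cuffdiff p-value of 5e-05 has a q-value of 0.000661 in all 3 comparisons. Adjusting within each comparison gives 0.000892 in pkl, 0.000908 in clf and 0.000460 in lhp1, so q was not adjusted within each comparison alone.

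Log2 fold changes were computed here from FPKM without a pseudocount, where both values were above 0. The test is the authors': status OK and q under 0.05. Tests on replicates, which the tables do not hold, could not be run, so the branch of the design for group values was followed. Where a gene has several loci, as GA3OX1 and RGL2, the one with the highest mean FPKM was taken. The rule named all members, called genes of the pathway lists and the mutated genes. It also named the nearest locus on each side and the 2 loci nearest in pattern to each called member. Regulators, AGL15 among them, and tissue markers come from fixed lists. The uncalled ELA2, GAMT2 and RGA were added after their values were seen. Members and lists were chosen with earlier results of these data known. Of 29230 single-gene nuclear loci, 28809 matched a RefSeq gene of TAIR10.1, all on the same chromosome and overlapping it. Calculations used Python 3.11.15, pandas 2.3.3, scipy 1.17.1 and biopython 1.88, and the adjustment and the implied standard error were tested on simulated data.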

Additional observations from a re-analysis of the deposited data

How the results depend on the processing

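The falls in pkl were the least secure. With q under 0.01, 0 members were lower in pkl: GA2OX2 (-0.73 on the log2 scale) and GA2OX8 (-0.91) lost their calls, and 0 were lower when a change of at least 2-fold was also asked. GA2OX6 in lhp1 (-0.51) lost its call at q under 0.01, and 1 member was lower in lhp1 at that threshold and 1 with at least 2-fold. Of pathway genes in pkl, 1 was higher and 1 lower at q under 0.01. The calls of GA2OX2 and GA2OX8 in clf and lhp1 held at q under 0.01, with at least 2-fold, and with the p-values adjusted within each table alone, which changed no call of a tested member. No called member is under 1 FPKM in both groups or in a shared locus, so those filters removed none. A pseudocount of 1 or 0.1 FPKM, centring on the median and equal upper quartiles recompute the log2 ratio and not the test; none changed its sign, but with 1 FPKM the log2 fold change of GA2OX8 was -1.48 in lhp1 and -1.30 in clf. ELA1 remained first in likeness to GA2OX2 with a pseudocount of 0.1 FPKM and over wild type, pkl and clf, and ranked 15 over wild type, pkl and lhp1. No paired analysis was possible because the tables hold 1 value per group, and leaving out single libraries was not run for the same reason.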
